A study of Arabidopsis thaliana with 16 samples.

Results

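The photoperiod genes described here are CONSTANS (CO, AT5G15840), its closest paralogs CONSTANS-LIKE 1 and 2 (COL1, AT5G15850; COL2, AT3G02380), CYCLING DOF FACTOR 1, 2, 3 and 5 (CDF1, AT5G62430; CDF2, AT5G39660; CDF3, AT3G47500; CDF5, AT1G69570) and FLAVIN-BINDING, KELCH REPEAT, F-BOX 1 (FKF1, AT1G68050). They were chosen by locus identifier as a fixed list of 8 genes among the 33048 genes with a deposited value, and 7 of the 8 were among the 19895 genes tested. Poly(A) RNA of whole Arabidopsis seedlings, 12 days old and grown at 23 °C with 16 h light and 8 h dark on sucrose-containing medium, was sequenced in 8 genotypes with 2 libraries each. Col-0 was the wild type and the background of all mutants. The aipp3 (allele aipp3-1), cpl2 (cpl2-2) and aipp2 (aipp2-1) mutants carry T-DNA insertions, paipp2 (paipp2-1) was made by CRISPR/Cas9, aipp2paipp2 combines the aipp2-1 and paipp2-1 alleles, and clf (clf-81) and lhp1 (lhp1-3) are Polycomb mutants. Each genotype was 1 line, and the time of day of harvest was not given in the sources used here. AIPP3 is a BAH-domain reader of H3K27me3, AIPP2 and its paralog PAIPP2 are PHD-finger readers of unmodified H3K4, and CPL2 is a phosphatase of the RNA polymerase II C-terminal domain, together called the BPC complex. CLF deposits H3K27me3, the repressive Polycomb mark, and LHP1 binds it.

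CO is a B-box and CCT-domain protein that activates the florigen gene FT in leaf phloem companion cells when light coincides with the late-day rise of its mRNA. The CDF proteins are Dof-type repressors of CO and FT transcription that are abundant in the morning. FKF1, a blue-light receptor and F-box protein, joins GIGANTEA (GI) in the afternoon and targets CDF proteins for degradation, so that CO mRNA can accumulate. Dof proteins bind DNA at an AAAG core, and the morning clock proteins CCA1 and LHY bind the evening element AAAATATCT found in many evening-phased genes.

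Because the CDF proteins act at the CO promoter and clock proteins bind the evening element, the 250 bases before the annotated start of CO, COL2 and FKF1 are shown here, 5′ to 3′ toward the gene, as read from the RefSeq genome TAIR10.1. In CO (chr5:5173086-5173335, minus strand) capitals mark the Dof core AAAG on either strand, and in COL2 (chr3:489468-489717, minus strand) and FKF1 (chr1:25508389-25508638, plus strand) they mark the evening element on either strand.
CO: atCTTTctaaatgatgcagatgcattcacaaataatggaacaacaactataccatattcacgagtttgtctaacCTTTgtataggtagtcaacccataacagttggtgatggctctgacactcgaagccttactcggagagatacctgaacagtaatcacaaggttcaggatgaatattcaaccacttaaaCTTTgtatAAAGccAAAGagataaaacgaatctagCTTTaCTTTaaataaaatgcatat
COL2: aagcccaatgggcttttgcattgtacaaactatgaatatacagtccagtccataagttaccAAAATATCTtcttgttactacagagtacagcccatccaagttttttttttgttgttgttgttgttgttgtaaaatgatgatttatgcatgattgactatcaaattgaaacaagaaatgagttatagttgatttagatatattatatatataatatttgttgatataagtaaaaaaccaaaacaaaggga
FKF1: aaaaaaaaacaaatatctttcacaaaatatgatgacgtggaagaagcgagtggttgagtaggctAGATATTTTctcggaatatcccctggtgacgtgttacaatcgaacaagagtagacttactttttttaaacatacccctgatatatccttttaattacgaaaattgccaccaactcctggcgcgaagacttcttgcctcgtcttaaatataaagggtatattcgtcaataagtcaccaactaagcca
The CO window held 7 Dof cores. As many or more were found in 13.6% of the 27431 protein-coding promoter windows of that length, and at least 1 in 98.0% of them, with a median of 4. The CDF2 window held 15 Dof cores, a number reached by 0.0255% of windows, together with a G-box (CACGTG, in 6.49% of windows). COL2 and FKF1 each held 1 evening element, which 2.36% of windows hold, and CDF5 held 1 CCA1-binding site (AAAAATCT, in 6.68% of windows). Neither element was present in the windows of CO, COL1, CDF1, CDF2 or CDF3. Both strands were searched, no match of the evening element or of the CCA1-binding site overlapped a match of the other in these windows, and a match of letters is no measure of binding.

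Library depth was estimated from the steps of the low values at 19200000 to 27100000 fragments. The mRNA of the mutated gene was lower than in Col-0 in aipp3 (AIPP3, log2 change -2.01), cpl2 (CPL2, -1.21), clf (CLF, -0.38) and lhp1 (LHP1, -0.55), and both mutated genes were lower in aipp2paipp2 (AIPP2 -1.64, PAIPP2 -0.45). In the single mutants, AIPP2 in aipp2 (-0.40) and PAIPP2 in paipp2 (-0.57) did not pass the test. The aipp2paipp2 libraries stood apart from each other: 10.94% of genes tested differed by 2-fold or more between them, against 0.74% to 1.73% in the other genotypes. The values of the tested photoperiod genes that passed in this genotype are therefore also given with each of its libraries left out. With 1 of them left out, aipp2paipp2 rests on 1 library and adds no spread of its own to the adjusted p. Passing in such a fit is therefore no check on the spread of aipp2paipp2. All 3 mesophyll and all 3 phloem companion cell markers were detected, but RBCS1A was listed at only 0.2 to 0.43 FPKM and AHA3 at 0.13 to 0.81 FPKM. All 4 flower markers, AP1, AP3, PI and AG, were higher in clf and lhp1, and their sum reached 41.7 to 42.2 FPKM in clf and 22.9 to 23.8 FPKM in lhp1, against 0.61 to 2.47 FPKM elsewhere. At low levels, AP1 was also higher in aipp3 (mean 0.53 FPKM, log2 change 1.01, adjusted p = 0.026) and aipp2paipp2 (0.45 FPKM, 0.89, adjusted p = 0.024). AP3 was higher in aipp2paipp2 as well (0.8 FPKM, 1.06, adjusted p = 0.032). All 3 seed markers, CRA1, CRC and OLE1, were higher in aipp2paipp2, and their sum was at 78.3 and 163 FPKM in aipp2paipp2, 45.2 and 9.04 FPKM in paipp2, 5.5 and 31.9 FPKM in cpl2, and 3.03 and 9.31 FPKM in aipp3, against 0.03 and 0.09 FPKM in Col-0. CRA1 was also higher in paipp2 (log2 change 4.77, adjusted p = 0.023), cpl2 (4.31, adjusted p = 0.0047) and aipp3 (3.19, adjusted p = 0.02). The root markers PHT1;1 and NRT2.1 summed to 43.2 and 44.9 FPKM in Col-0, 74.1 and 74.9 FPKM in lhp1, 66.8 and 78.3 FPKM in aipp3, and 32.3 to 50.4 FPKM elsewhere, with PHT1;1 higher in lhp1 (log2 change 0.76, adjusted p = 0.015) and aipp3 (0.72, adjusted p = 0.032) and NRT2.1 higher in aipp2paipp2 (1.93, adjusted p = 6.9e-04). The part of the flower, seed and root markers in the results of these mutants was not tested. Levels are given as FPKM, fragments scaled to transcript length and library size, with replicate 1 before replicate 2. A gene passed when its Benjamini-Hochberg adjusted p in limma's moderated test on log2(FPKM + 0.5) was under 0.05. In such whole seedlings, fewer cells of a type and less RNA per cell cannot be told apart.

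Photoperiod genes passed mainly in the Polycomb mutants and in aipp2paipp2, and nearly all of the changes that passed were decreases. The Benjamini-Hochberg adjustment was made within each comparison, so passing also depended on how many other genes changed there. Some log2 changes in both directions that did not pass were larger than that of COL2 in aipp2paipp2 (-0.42), which passed. Among them were COL2 (0.63) and CO (-0.52) in paipp2, and CDF2 (0.49) and CDF3 (0.44) in aipp3. In clf 4 of the 7 genes tested were lower than in Col-0 and none was higher, where 14.7% of all genes tested were lower and 13.1% higher. In lhp1 4 were lower (8.37% of all genes) and 1 was higher (9.05%). In aipp2paipp2 4 were lower (9.08% of all genes) and none was higher (14.8%). In cpl2 1 gene, CO, was lower (1.97% of all genes) and none was higher (4.97%). No photoperiod gene passed in aipp3, where 7.42% of all genes were higher and 1.93% lower, although 2 had an unadjusted p under 0.05 in limma. None passed in aipp2 (0.00503% of all genes higher, 0% lower) or in paipp2 (0.236% higher, 0.131% lower), with 3 and 5 genes at an unadjusted p under 0.05. When aipp2paipp2 replicate 1 or replicate 2 was left out of the model, far more of all genes passed in aipp3 and paipp2. Among the photoperiod genes, CDF2 (0.49), CDF3 (0.44) and FKF1 (0.39) in aipp3 were then past the threshold. So were COL2 (0.63) and CDF1 (0.72) in paipp2, all higher and with log2 changes as in the main fit. In aipp2paipp2 1 gene (CDF3) passed without Col-0 replicate 1, in cpl2 none passed without Col-0 replicate 1, Col-0 replicate 2 or cpl2 replicate 2, and in lhp1 3 passed without lhp1 replicate 2. Across all genotypes, 6 of the 7 genes passed limma's F test for any difference, as did 50.4% of all genes, and CDF5 did not (adjusted p = 0.061).

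**Figure D1:**
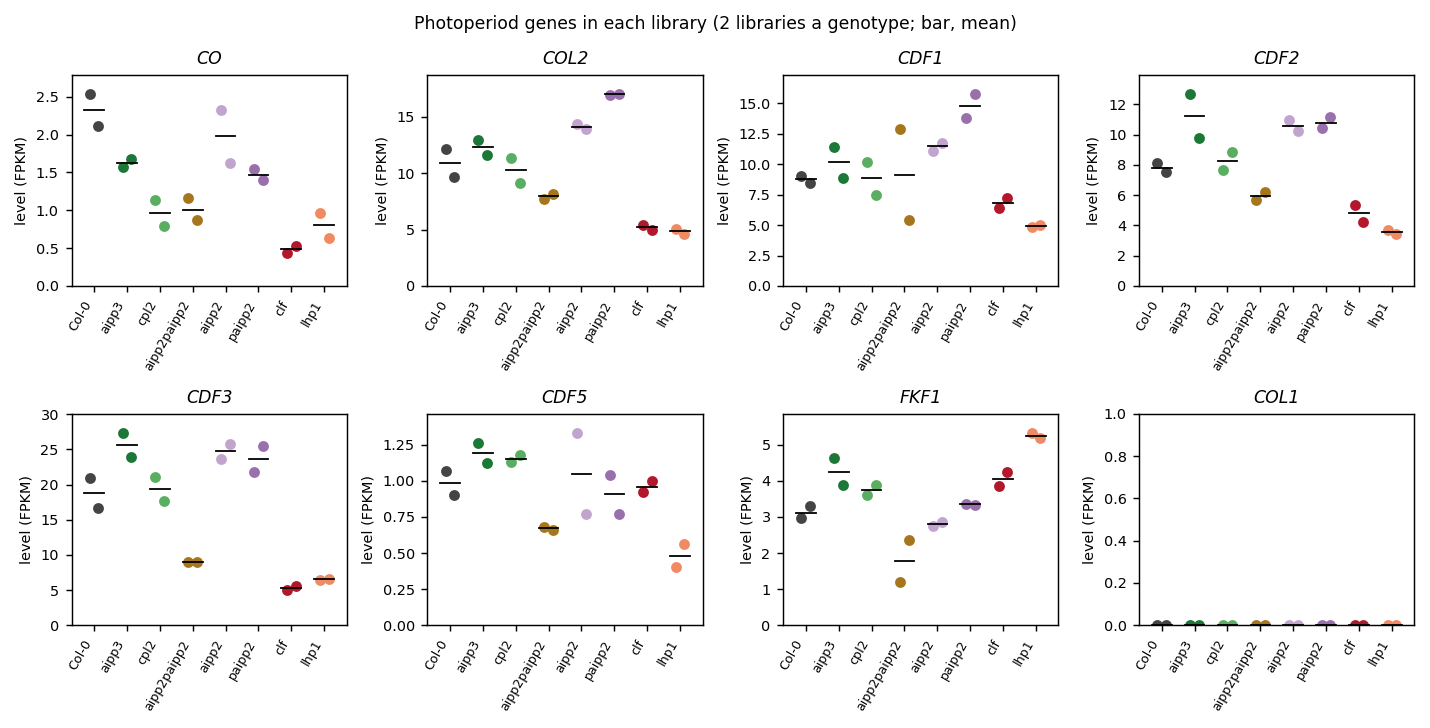
Level of each photoperiod gene in FPKM (vertical axes, starting at 0) in the 8 genotypes, with a point per library and a bar at the mean of the 2 libraries. CDF3 sits at 8.97 FPKM or lower in aipp2paipp2, clf and lhp1 and at 16.73 FPKM or higher elsewhere, CO is highest in Col-0 on average, and COL1 is listed at 0 throughout.

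CO mRNA was scarce in every genotype and lower in 4 of the mutants. In Col-0 the CO level was 2.54 and 2.11 FPKM. It was 0.44 and 0.53 FPKM in clf, 0.97 and 0.64 FPKM in lhp1, 1.14 and 0.79 FPKM in cpl2, and 1.16 and 0.87 FPKM in aipp2paipp2. None of these libraries overlapped those of Col-0, and clf was the lowest genotype, below lhp1 without overlap. The log2 change from Col-0 was -1.52 ± 0.21 (SE, n = 2 libraries per genotype) in clf (limma adjusted p = 2.9e-04), -1.12 in lhp1 (adjusted p = 0.0038), -0.95 in cpl2 (adjusted p = 0.019) and -0.90 in aipp2paipp2 (adjusted p = 0.01). The remaining mutants lay between these and Col-0, with CO at 1.57 and 1.68 FPKM in aipp3, 1.54 and 1.40 FPKM in paipp2 and 2.33 and 1.62 FPKM in aipp2. Only aipp2 overlapped Col-0, and none of these 3 passed. These levels correspond to an estimated 20 to 146 fragments per library, against 140 to 1225 for CDF1, CDF2 and CDF3, so that counting error weighs more on CO than on those genes. The decrease in cpl2 lost its call without Col-0 replicate 1 (-0.84, adjusted p = 0.16), without Col-0 replicate 2 (-1.06, adjusted p = 0.05 after rounding) and without cpl2 replicate 2 (-0.78, adjusted p = 0.16), and in the fit of the cpl2 and Col-0 libraries alone (adjusted p = 0.068). The decrease in aipp2paipp2 lost its call without Col-0 replicate 1 (-0.79) and in the fit of the libraries compared alone (adjusted p = 0.2). Leaving out either of the aipp2paipp2 libraries gave -1.04 (replicate 1 out) and -0.76 (replicate 2 out). The decrease in lhp1 lost its call without lhp1 replicate 2 (-0.94), and that in clf kept it in all 25 alternatives.

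COL1, a tandem neighbour of CO with a related B-box protein, was listed at 0 FPKM in all 16 libraries and could not be compared. CO (chromosome 5, 5170162 to 5173085, minus strand) and COL1 (5176091 to 5177897, minus strand) are 3005 bases apart. All 1698 exonic bases of COL1 lie within exons of AT5G15845, a long noncoding RNA on the opposite strand that was itself at 0.04 to 0.29 FPKM. The RNA kit does not mark strand, and reads from a gene and its antisense partner cannot be told apart. A value of 0 in these files may also be a failed estimate, since 6146 genes were listed at 0 in every library. The same holds at other members: CO shares 738 exonic bases with AT5G15843 on the opposite strand, COL2 shares 506 with AT3G02390, and CDF5 shares 1154 with the noncoding RNA AT1G69572. The first 2 of these partners were listed at 0 in all libraries and the last in 15 of 16. COL2 also shares 212 exonic bases with AT3G02370, at 0.81 to 1.58 FPKM, and FKF1 shares 21 with its neighbour AT1G68060. CDF1, CDF2 and CDF3 overlap no annotated gene.

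**Figure D2:**
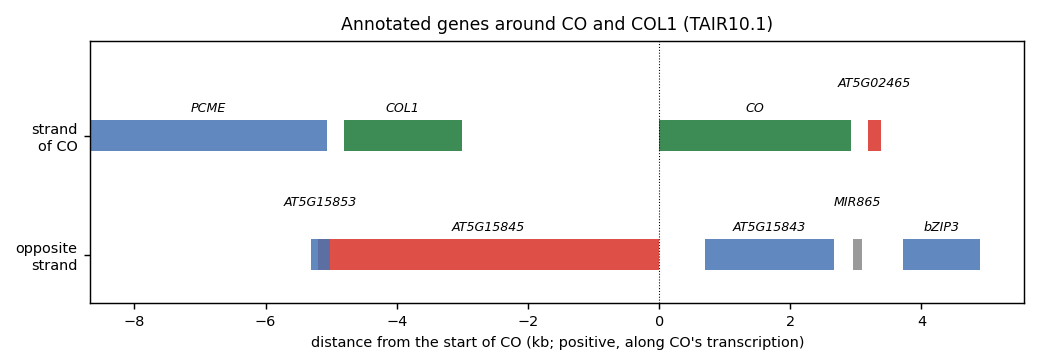
Annotated genes (bars) around CO and COL1, by distance in kilobases from the start of CO along its direction of transcription, with genes on the strand of CO above and on the opposite strand below. Green marks CO and COL1, blue other protein-coding genes, red noncoding RNAs and grey a microRNA gene; the noncoding RNA AT5G15845 spans COL1 and meets the start of CO.

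COL2, a close paralog of CO that is expressed far above it, was lower in both Polycomb mutants and less so in aipp2paipp2. Its level was 12.11 and 9.67 FPKM in Col-0, 5.37 and 5.0 FPKM in clf, and 5.05 and 4.65 FPKM in lhp1. The clf and lhp1 libraries overlapped each other and lay below every library of the other genotypes. The log2 change was -0.99 ± 0.129 (SE) in clf (adjusted p = 1.8e-04) and -1.08 in lhp1 (adjusted p = 2.0e-04), and both calls were kept in every alternative. In aipp2paipp2 COL2 was at 7.70 and 8.18 FPKM, again without overlap with Col-0 (log2 change -0.42, adjusted p = 0.034). That call was lost in 7 of 25 alternatives, among them without Col-0 replicate 1 (-0.27, adjusted p = 0.25), without aipp2paipp2 replicate 1 (-0.38, adjusted p = 0.088), without either aipp2 library (-0.42, adjusted p = 0.051) and without either paipp2 library (-0.42, adjusted p = 0.05 after rounding), and in the fit of the libraries compared alone (adjusted p = 0.42). Without aipp2paipp2 replicate 2 it was -0.47 (adjusted p = 0.018). The single mutants stood on the other side of Col-0, with 14.32 and 13.95 FPKM in aipp2 and 16.96 and 17.03 FPKM in paipp2, and did not pass. In paipp2 the value passed without aipp2paipp2 replicate 1 or without its replicate 2 (0.63 and adjusted p = 0.017 in each case). The levels in aipp3 (12.93 and 11.59 FPKM) and cpl2 (11.36 and 9.15 FPKM) overlapped Col-0.

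CDF3, a Dof repressor of CO and the most abundant CDF in Col-0, showed the clearest separation of genotypes. Its level was 20.87 and 16.73 FPKM in Col-0, 5.03 and 5.57 FPKM in clf, 6.42 and 6.62 FPKM in lhp1, and 8.97 and 8.95 FPKM in aipp2paipp2. These 3 mutants overlapped neither Col-0 nor each other. The seed markers were also high in aipp2paipp2, where AP1 and AP3 passed as higher too, and the flower markers were high in clf and lhp1. Their levels are given above, and the part of these markers in the decreases was not tested. The log2 change was -1.73 ± 0.133 (SE) in clf (adjusted p = 4.1e-06), -1.45 in lhp1 (adjusted p = 3.3e-05) and -1.02 in aipp2paipp2 (adjusted p = 3.7e-04). The aipp2paipp2 change stayed at -1.02 without either of its libraries, but did not pass in a fit of the aipp2paipp2 and Col-0 libraries alone (adjusted p = 0.093). In aipp3 (27.32 and 23.86 FPKM), aipp2 (23.69 and 25.79 FPKM) and paipp2 (21.73 and 25.41 FPKM) CDF3 lay above Col-0 without overlap, without passing. The cpl2 libraries, at 21.12 and 17.66 FPKM, overlapped Col-0.

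CDF2, which acts redundantly with the other CDF proteins, was lower in both Polycomb mutants. It was at 8.12 and 7.51 FPKM in Col-0, 5.36 and 4.22 FPKM in clf, and 3.72 and 3.46 FPKM in lhp1. The log2 change was -0.66 ± 0.144 (SE) in clf (adjusted p = 0.0055) and -1.02 in lhp1 (adjusted p = 6.4e-04). Without clf replicate 2 the clf value was -0.50 (adjusted p = 0.068). In aipp2paipp2 CDF2 was at 5.70 and 6.22 FPKM, below Col-0 without overlap but not past the threshold (adjusted p = 0.086), and it passed without aipp2paipp2 replicate 2 (-0.42, adjusted p = 0.047) and with quantile normalization (-0.49, adjusted p = 0.034). In aipp3, aipp2 and paipp2 it lay between 9.79 and 12.70 FPKM, above every Col-0 library, and did not pass. The cpl2 libraries, at 7.64 and 8.88 FPKM, overlapped Col-0. Without aipp2paipp2 replicate 1 or replicate 2, both CDF2 (0.49, adjusted p = 0.023) and CDF3 (0.44, adjusted p = 0.025) passed as higher in aipp3.

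CDF1, the CDF first found as a substrate of FKF1, gave opposite answers in the 2 aipp2paipp2 libraries. These were at 12.91 and 5.40 FPKM, on either side of Col-0 at 9.08 and 8.50 FPKM. With replicate 1 left out the log2 change of CDF1 from Col-0 was -0.65, and with replicate 2 left out it was 0.53. The same libraries were at 223 and 655 FPKM for the summed mesophyll markers and at 38.3 and 82.1 FPKM for the summed phloem markers, and the part of such differences in the CDF1 values was not tested. In lhp1 CDF1 was at 4.86 and 4.98 FPKM, the lowest of all genotypes, and in clf at 6.44 and 7.21 FPKM, both below Col-0 without overlap and neither past the threshold. The lhp1 value was -0.78, which passed without aipp2paipp2 replicate 1 (adjusted p = 0.0018) or replicate 2 (adjusted p = 0.0017), and also in the fit of the lhp1 and Col-0 libraries alone (adjusted p = 0.0037). The clf value passed in the fit of the clf and Col-0 libraries alone (-0.34, adjusted p = 0.048). In paipp2 CDF1 was highest, at 13.79 and 15.80 FPKM, and passed only without aipp2paipp2 replicate 1 (0.72, adjusted p = 0.021) or replicate 2 (0.72, adjusted p = 0.02). The levels in aipp3 (11.45 and 8.88 FPKM) and cpl2 (10.21 and 7.49 FPKM) overlapped Col-0, and those in aipp2 (11.13 and 11.79 FPKM) did not.

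CDF5, the least abundant CDF measured, was at 1.07 and 0.90 FPKM in Col-0 and passed in no mutant. Its lowest levels were 0.40 and 0.56 FPKM in lhp1 and 0.68 and 0.66 FPKM in aipp2paipp2, neither of which overlapped Col-0. The remaining genotypes lay between 0.77 and 1.33 FPKM. An estimated 21 to 55 fragments per library stand behind these values. In lhp1 the value of -0.60 did not pass with all libraries, but did without aipp2paipp2 replicate 1 or replicate 2 (adjusted p = 0.042), without aipp2 replicate 2 (adjusted p = 0.05 after rounding), without a trend (adjusted p = 0.03) and, at -0.91, with a pseudocount of 0.1 (adjusted p = 0.05 after rounding). In aipp2paipp2 it passed with quantile normalization (-0.60, adjusted p = 0.05 after rounding).

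FKF1 moved in opposite directions in aipp2paipp2 and lhp1. Its level was 2.96 and 3.29 FPKM in Col-0, 1.2 and 2.36 FPKM in aipp2paipp2, and 5.32 and 5.18 FPKM in lhp1. Neither mutant overlapped Col-0. The log2 change was -0.72 ± 0.198 (SE) in aipp2paipp2 (adjusted p = 0.023) and 0.67 in lhp1 (adjusted p = 0.038). The size of the decrease depended on the library: it was -1.09 (adjusted p = 5.1e-05) without aipp2paipp2 replicate 2 and -0.34 (adjusted p = 0.1) without replicate 1, and it was not called without Col-0 replicate 1 (adjusted p = 0.078) or Col-0 replicate 2 (adjusted p = 0.11), nor in the fit of the libraries compared alone (adjusted p = 0.38). The increase in lhp1 was of similar size in every alternative, 0.60 to 0.73, but missed the threshold in 15 of 26, with adjusted p reaching 0.2 without Col-0 replicate 1. The other losses were without Col-0 replicate 2 (adjusted p = 0.086), lhp1 replicate 1 (0.16) or replicate 2 (0.14), and without either library of cpl2, aipp2, paipp2 or clf (0.051 to 0.056), as well as with a pseudocount of 0.1, with no filter and with quantile normalization. FKF1 was at 3.86 and 4.25 FPKM in clf, 4.62 and 3.87 FPKM in aipp3 and 3.61 and 3.89 FPKM in cpl2, all above Col-0 and none past the threshold. Without aipp2paipp2 replicate 1 or replicate 2, FKF1 passed as higher in aipp3 (0.39, adjusted p = 0.028 and 0.029) and in clf (0.33, adjusted p = 0.031 and 0.033). In paipp2 it was at 3.37 and 3.33 FPKM and in aipp2 at 2.76 and 2.86 FPKM.

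**Figure D3:**
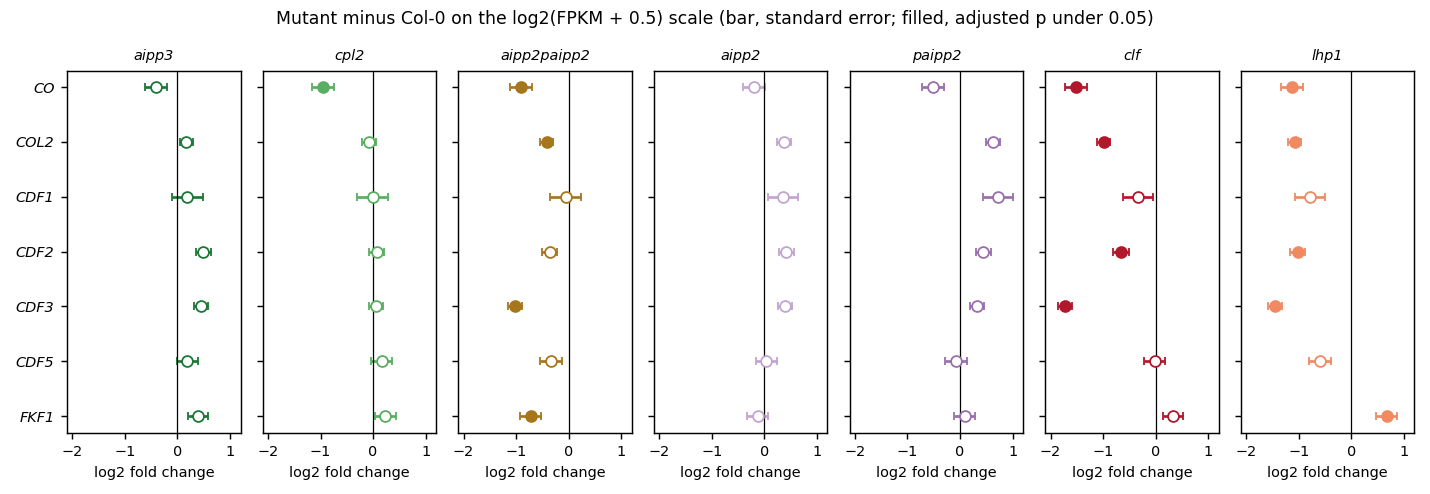
Log2 fold change of each tested photoperiod gene from Col-0 (horizontal axes, on the log2(FPKM + 0.5) scale) in the 7 mutants, with bars of 1 standard error and filled points for an adjusted p under 0.05. CDF3 is at -1.73 in clf, -1.45 in lhp1 and -1.02 in aipp2paipp2, and FKF1 is at 0.67 in lhp1 and -0.72 in aipp2paipp2.

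Direct comparison of clf with lhp1, which asks whether the writer and the reader mutants differ, called no photoperiod gene, where 14.6% of all genes were called in either direction. CDF2 and CDF5 had an unadjusted p under 0.05 in limma, 2 genes in all. Without aipp2paipp2 replicate 1 or replicate 2, CDF1 was higher (0.43, adjusted p = 0.039) and FKF1 lower (-0.34, adjusted p = 0.038 and 0.04) in clf than in lhp1.

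In 3 of the 7 genes tested, the aipp2 and paipp2 alleles together gave levels that the single alleles did not add up to. For COL2, CDF2 and CDF3, both single mutants lay above Col-0 and aipp2paipp2 lay below it. The sum of the single-mutant changes would put CDF3 at 31.0 FPKM, COL2 at 22.1 FPKM and CDF2 at 14.6 FPKM in aipp2paipp2, against measured means of 8.96, 7.94 and 5.96 FPKM. None of the single-mutant increases behind these sums passed with all libraries. AIPP2 mRNA was at 3.94 FPKM on average in aipp2 and 1.37 FPKM in aipp2paipp2, against 5.34 FPKM in Col-0. The sum takes the aipp2 allele to act alike in both mutants, which was not tested. The interaction term was -1.74 ± 0.188 (SE, log2) for CDF3 (adjusted p = 0.0012), -1.42 for COL2 (adjusted p = 0.003) and -1.23 for CDF2 (adjusted p = 0.0088), 3 of the 7 genes, where 4.79% of all genes passed. Without aipp2paipp2 replicate 1 these terms were -1.74, -1.38 and -1.17, and without replicate 2 they were -1.74, -1.46 and -1.28. Each of these values rests on 1 aipp2paipp2 library. The CDF2 term missed the threshold without aipp2 replicate 1 or paipp2 replicate 2 (-1.18 for both). None of the 3 terms passed in a fit of the 8 libraries of these 4 genotypes alone (adjusted p = 0.071 for CDF3, 0.073 for COL2 and 0.084 for CDF2). The CO term was -0.18 (adjusted p = 0.74). The CDF1 and FKF1 terms (-1.14 and -0.67) did not pass with all libraries. The CDF1 term was -1.74 without aipp2paipp2 replicate 1 and -0.55 without replicate 2. The FKF1 term was -0.3 without aipp2paipp2 replicate 1 and -1.05 without replicate 2.

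**Figure D4:**
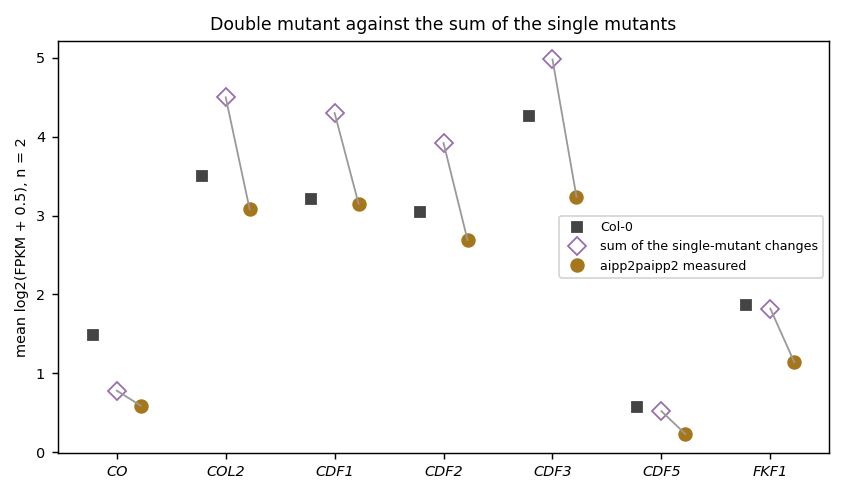
Mean log2(FPKM + 0.5) of 2 libraries (vertical axis) for each tested photoperiod gene in Col-0 (squares), as the sum of the single-mutant changes would give (open diamonds) and as measured in aipp2paipp2 (circles). For CDF3, COL2 and CDF2 the sum lies above Col-0 and the measured mean below it, with differences of -1.74, -1.42 and -1.23.

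The aipp2paipp2 mutant was also set directly against 3 other mutants, a choice made after the levels had been seen. Against aipp3 it was lower for CDF3 (log2 difference -1.46, adjusted p = 1.3e-04), FKF1 (-1.10, adjusted p = 0.0035), CDF2 (-0.85, adjusted p = 0.0027) and COL2 (-0.59, adjusted p = 0.0087), 4 of 7 genes, where 22.6% of all genes were called. The FKF1 difference was -0.73 without aipp2paipp2 replicate 1 and -1.48 without replicate 2. In the same fits CDF3 was at -1.46 in both cases, CDF2 at -0.79 and -0.91, and COL2 at -0.55 and -0.64. CDF1, which did not pass with all libraries, was at -0.84 without aipp2paipp2 replicate 1 and 0.34 without replicate 2. The COL2 difference missed the threshold without aipp3 replicate 1 (-0.52, adjusted p = 0.064). Against cpl2, CDF3 (-1.07, adjusted p = 0.0014) and FKF1 (-0.95, adjusted p = 0.015) were lower, 2 of 7 genes, where 12.9% of all genes were called. The FKF1 difference was not called without cpl2 replicate 1 (-0.99, adjusted p = 0.054) or replicate 2 (-0.90, adjusted p = 0.097), and it was -0.57 (adjusted p = 0.031) without aipp2paipp2 replicate 1 and -1.32 (adjusted p = 1.6e-05) without replicate 2. CDF3 was at -1.07 without either. CDF1 passed as lower without aipp2paipp2 replicate 1 (-0.65, adjusted p = 0.049) and as higher without replicate 2 (0.54, adjusted p = 0.024), where COL2 (-0.38, adjusted p = 0.044) and CDF2 (-0.50, adjusted p = 0.025) passed as lower too. CDF2 also passed with quantile normalization (-0.50, adjusted p = 0.045). Against lhp1, FKF1 was lower (-1.38, adjusted p = 5.6e-04), while COL2 (0.66, adjusted p = 0.004), CDF2 (0.66, adjusted p = 0.0075) and CDF3 (0.43, adjusted p = 0.037) were higher, 4 of 7 genes, where 22.9% of all genes were called. Without lhp1 replicate 2 only COL2 and FKF1 were called, with CDF2 at 0.61 (adjusted p = 0.064) and CDF3 at 0.45 (adjusted p = 0.13). The CDF3 difference was likewise not called without lhp1 replicate 1 (0.41, adjusted p = 0.16), aipp2paipp2 replicate 1 (0.43, adjusted p = 0.072) or either aipp2 library (0.43, adjusted p = 0.052), nor with quantile (0.31) or median-ratio (0.34) scaling, and was 0.43 (adjusted p = 0.031) without aipp2paipp2 replicate 2. Without aipp2paipp2 replicate 1 and replicate 2 in turn, FKF1 was at -1.01 and -1.76, COL2 at 0.70 and 0.62, and CDF2 at 0.72 and 0.60. CDF1 was at 0.12 and 1.31 in these fits. CDF5 passed against aipp3 in a fit without a trend (-0.53, adjusted p = 0.043). No difference from these 3 mutants passed in a fit of only the libraries compared (adjusted p = 0.12 to 0.5).

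GI, the partner of FKF1, was lower in aipp2paipp2 and clf. GI was at 9.99 and 9.18 FPKM in Col-0, 3.26 and 4.25 FPKM in aipp2paipp2 (log2 change -1.25, adjusted p = 1.4e-04) and 4.68 and 4.82 FPKM in clf (-0.94, adjusted p = 4.7e-04), and both calls held with each of the 16 libraries left out in turn. Without aipp2paipp2 replicate 1 the change in aipp2paipp2 was -1.09, and without replicate 2 it was -1.42. In lhp1 GI was at 7.16 and 6.67 FPKM, below Col-0 without overlap, and its call (-0.44, adjusted p = 0.049) was lost with 14 of the 16 libraries left out, with adjusted p up to 0.25. Of the other F-box and blue-light partners tested, ZTL, LKP2, CRY1 and CRY2, only CRY1 in clf passed (-0.30, adjusted p = 0.034), a call lost with 11 of the 16 libraries left out. With GI, 1 of 5 partners was lower in aipp2paipp2 (9.08% of all genes), 2 in clf (14.7%) and 1 in lhp1 (8.37%). Without aipp2paipp2 replicate 2, ZTL, LKP2 and CRY2 in aipp2paipp2 were at -0.92, -0.66 and -0.55, against 0.05, 0.07 and -0.06 without replicate 1. In aipp3 GI was at 0.43, ZTL at 0.31, LKP2 at 0.27, CRY2 at 0.19 and CRY1 at 0.06, and none passed with all libraries. Leaving out aipp2paipp2 replicate 2 gave further calls among these partners in both mutants, in a fit where far more of all genes passed as well.

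Clock genes with a morning peak were lower in both Polycomb mutants. Of 7 such genes, 6 were lower in clf and 7 in lhp1, where 14.7% and 8.37% of all genes were lower. Their median log2 changes were -0.88 and -1.01, against -0.06 and -0.01 over all genes tested. With 1 library left out, 3 to 7 were lower in clf and 4 to 7 in lhp1. CCA1, a Myb-type core clock factor, fell from 46.47 and 30.09 FPKM in Col-0 to 21.18 and 16.89 FPKM in clf (-0.97, adjusted p = 0.0029) and 15.13 in both lhp1 libraries (-1.28, adjusted p = 9.2e-04). LHY, its partner, was lower by -1.01 in lhp1 (adjusted p = 0.0012) and by -0.64 in clf (adjusted p = 0.01), where the call was lost without Col-0 replicate 1 or clf replicate 2 (adjusted p up to 0.12). The 4 largest changes in lhp1 were in LNK2 (-1.48), PRR9 (-1.31), CCA1 and LHY, and in clf those in PRR9 (-1.16), LNK2 (-1.08), CCA1 and PRR7 (-0.88). Of these 8, the PRR7 call in clf was lost without Col-0 replicate 1 (adjusted p = 0.053) and the others held with each library left out. In aipp2paipp2 LNK1 (-0.72, adjusted p = 0.012) and LNK2 (-0.61, adjusted p = 0.032) were lower, 2 of 7 genes, where 9.08% of all genes were, while CCA1 (39.33 and 29.27 FPKM) and LHY (47.25 and 33.20 FPKM) overlapped Col-0. LNK1 was at -0.92 without aipp2paipp2 replicate 1 and -0.51 without replicate 2, and lost its call without Col-0 replicate 1 (adjusted p = 0.12). LNK2 was at -0.71 without aipp2paipp2 replicate 1, and lost its call without replicate 2 (-0.52, adjusted p = 0.058) or Col-0 replicate 1 (-0.26, adjusted p = 0.26). PRR9 was higher in aipp3 (1.00) and cpl2 (0.96), 1 of 7 genes in each, where 7.42% and 4.97% of all genes were higher. That call was lost without Col-0 replicate 1, Col-0 replicate 2 or aipp3 replicate 1 in aipp3 (adjusted p up to 0.14) and with any 1 Col-0 or cpl2 library left out in cpl2 (adjusted p up to 0.13).

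Clock genes with an afternoon or evening peak moved in both directions. Of 7 such genes, 4 were higher and 2 lower in lhp1, where 9.05% of all genes were higher and 8.37% lower. In clf 1 was higher and 3 were lower (13.1% and 14.7% of all genes), and in aipp2paipp2 1 was higher and 2 were lower (14.8% and 9.08%). LUX, of the evening complex, was lower in aipp2paipp2 (-0.99, adjusted p = 1.0e-04), lhp1 (-0.67) and clf (-0.49), with each library left out in turn. PRR3, a relative of TOC1, was higher in lhp1 (0.93, adjusted p = 0.0043), and ELF3, a partner of LUX, was lower in clf (-0.64, adjusted p = 0.0011), also with each library left out. ELF4, another member of the evening complex, was higher in lhp1 (0.71) except without Col-0 replicate 1, Col-0 replicate 2 or lhp1 replicate 1 (adjusted p up to 0.12), and in clf (0.63) except without Col-0 replicate 2 or either clf library (adjusted p up to 0.099). TOC1, an evening repressor of CCA1, rose from 25.82 and 30.85 FPKM to 42.11 and 42.13 FPKM in lhp1 (0.57, adjusted p = 0.025), which was lost without Col-0 replicate 1, lhp1 replicate 1 or lhp1 replicate 2 (adjusted p up to 0.2), and was at 30.60 and 28.46 FPKM in clf. In aipp2paipp2 TOC1 was at 47.79 and 32.14 FPKM (0.47, adjusted p = 0.047), and passed only without aipp2paipp2 replicate 2 (0.75, adjusted p = 1.3e-04) among the 16 libraries left out. PRR5 was higher in aipp3 (0.51, adjusted p = 0.043), 1 of 7 genes, and lost that call without 10 of the 16 libraries. Clock genes and photoperiod genes cycle over the day, and the part of clock phase or harvest time in the levels was not tested. The summed phloem companion cell markers were at 53.3 and 51.9 FPKM in clf and 74.7 and 71.8 FPKM in lhp1, against 90.3 and 101 FPKM in Col-0. In clf SUC2 passed as lower (-0.98, limma adjusted p = 0.031) and APL did not pass (-0.3). In lhp1 neither passed (SUC2 -0.43, APL -0.12). The summed mesophyll markers were at 349 and 347 FPKM in lhp1 against 1050 and 662 FPKM in Col-0. There LHCB2.1 passed as lower (-1.29, limma adjusted p = 0.013) and LHCB1.2 did not pass (-1.2, adjusted p = 0.39). The root marker sum in lhp1 was 74.1 and 74.9 FPKM against 43.2 and 44.9 FPKM. The part of these marker differences in the changes of the photoperiod and clock genes was not tested.

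FT, the target of CO, was higher where CO was lower in 3 of the mutants. It was at 0.82 and 1.75 FPKM in Col-0, 14.18 and 13.07 FPKM in lhp1 (log2 change 3.03, adjusted p = 2.2e-04), 9.25 and 6.16 FPKM in clf (2.23, adjusted p = 9.6e-04) and 6.58 and 7.01 FPKM in cpl2 (2.08, adjusted p = 0.006). The calls in lhp1 and clf held with each library left out, and that in cpl2 was lost without Col-0 replicate 1 or cpl2 replicate 2 (adjusted p up to 0.077). FT did not pass in aipp3, aipp2 or paipp2. In aipp2paipp2, where CO was lower as well, FT was at 1.66 and 4.04 FPKM and did not pass (adjusted p = 0.11). The log2 change of FT in aipp2paipp2 was 1.40 without aipp2paipp2 replicate 1 and 0.33 without replicate 2. Over the 16 libraries the Pearson correlation of CO with FT on the log2 scale was -0.82. For the differences between the 2 libraries of a genotype it was -0.37. These are descriptions in which libraries of a genotype share their mutation, and whether all libraries were harvested together was not given. SOC1, another CO target, was higher in aipp2paipp2 (1.24, adjusted p = 0.0014), cpl2 (0.97, adjusted p = 0.014) and aipp3 (0.92, adjusted p = 0.017), and TSF was too low to test. By RT-qPCR of older seedlings, the study reported FT raised in aipp3, cpl2 and aipp2paipp2 and no significant change of SOC1. The SOC1 change in aipp2paipp2 was 0.81 without its replicate 1 and 1.67 without its replicate 2. In cpl2 and aipp3 the SOC1 call was lost with any 1 library of that mutant or of Col-0 left out (adjusted p up to 0.09 and 0.11).

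**Figure D5:**
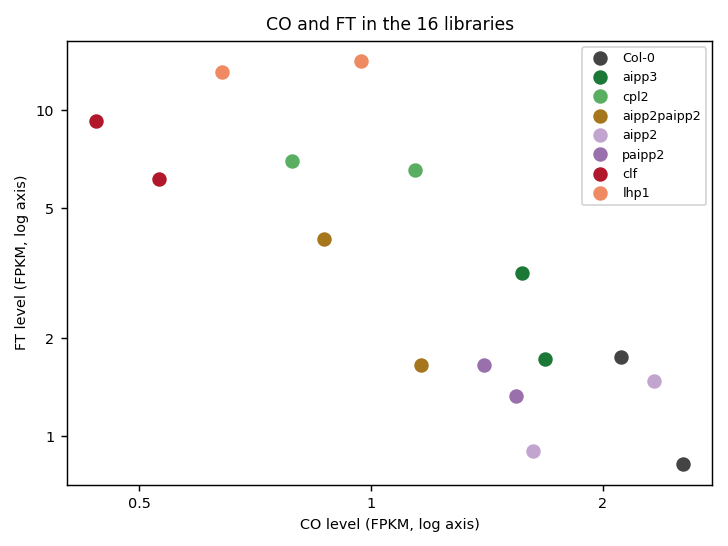
FT level against CO level in FPKM (both axes logarithmic), with 1 point per library coloured by genotype. The lhp1, clf and cpl2 libraries have CO at 1.14 FPKM or lower and FT at 6.16 FPKM or higher, and the Col-0 libraries have CO at 2.11 FPKM or higher and FT at 1.75 FPKM or lower.

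Among the other CO-like genes, which share the B-box and CCT domains, 12 of 14 were tested. In clf 5 were lower and none higher, where 14.7% of all genes were lower and 13.1% higher. In lhp1 5 were lower and 2 higher, where 8.37% of all genes were lower and 9.05% higher. The medians were -0.37 and -0.47. The largest decreases were in COL7, at 9.46 and 5.33 FPKM in Col-0, 1.34 and 1.82 FPKM in clf (-1.88) and 1.8 and 1.03 FPKM in lhp1 (-2.02), followed by COL16 (-1.06 in clf, -1.01 in lhp1), COL6 (-0.85) and COL5 (-0.73) in clf, and COL5 (-1.07) and COL3 (-0.73) in lhp1. These 8 calls held with each library left out in turn, and 4 to 8 genes in clf and 4 to 7 in lhp1 were then lower. COL5 was higher in aipp3 (0.58, adjusted p = 0.0028), 1 of 12 genes where 7.42% of all genes were higher, again with each library left out. In aipp2paipp2 COL5 was lower (-0.32, adjusted p = 0.024), 1 of 12 genes where 9.08% of all genes were lower. It was -0.38 and -0.25 without aipp2paipp2 replicate 1 and replicate 2, and lost its call without Col-0 replicate 1 (adjusted p = 0.16). COL7 was higher in paipp2 (1.61, adjusted p = 0.035), where 0.236% of all genes were higher, and lost its call without 10 of the 16 libraries. In cpl2 and aipp2 none passed.

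Of the regulators of CO transcription, 6 of 7 were tested. In clf 3 were higher and 2 lower (13.1% and 14.7% of all genes), in lhp1 2 were higher and 1 lower (9.05% and 8.37%), in aipp2paipp2 1 was higher and 2 were lower (14.8% and 9.08%), and in aipp3 1 was higher (7.42%). FBH3, one of the bHLH activators that bind the CO promoter, was higher in aipp2paipp2 (0.81), clf (0.64) and lhp1 (0.60) with each library left out, and in aipp3 (0.59) except without Col-0 replicate 2 or aipp3 replicate 2 (adjusted p up to 0.068). FBH4, a second such activator, was lower in clf (-0.80) and lhp1 (-0.80) with each library left out. In aipp2paipp2 FBH4 was at -0.61, or -0.71 and -0.50 without its replicate 1 and replicate 2, and lost its call without either Col-0 library (adjusted p up to 0.059). FBH3 in aipp2paipp2 was at 0.75 and 0.87 in the same fits. FBH2 was higher in lhp1 (0.41), except without Col-0 replicate 1, Col-0 replicate 2 or lhp1 replicate 1. It was also higher in clf (0.34, limma adjusted p = 0.024), except with any 1 Col-0 or clf library left out. TPL, the corepressor recruited by CDF proteins, was at 80.90 and 74.65 FPKM in Col-0 and lower in clf (50.20 and 48.93 FPKM, -0.64) with each library left out. In aipp2paipp2 TPL was at 50.70 and 69.97 FPKM (-0.38, adjusted p = 0.046), and passed only without aipp2paipp2 replicate 2 (-0.61, adjusted p = 4.4e-05) among the 16 libraries left out. CDF4 was higher in clf (0.54), except without Col-0 replicate 1, Col-0 replicate 2 or clf replicate 2 (adjusted p up to 0.26).

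Among 12 regulators of CO protein, none was higher and 3 were lower in clf (13.1% and 14.7% of all genes), and 2 were higher and 3 lower in lhp1 (9.05% and 8.37%). In aipp2paipp2 2 were higher and 1 lower (14.8% and 9.08%), in aipp3 2 were higher (7.42%) and in cpl2 1 was higher (4.97%). This list shares PRR9, PRR7, PRR5 and TOC1 with the clock genes above. The calls in aipp3 were PRR9 and PRR5, and that in cpl2 was PRR9. PRR9 and PRR7 were among those lower in clf, and TOC1 among those higher in aipp2paipp2. The calls in lhp1 include the clock genes PRR9, PRR7 (-0.58), TOC1 and PRR5 (0.49), of which PRR9 held with each library left out, while PRR7 and PRR5 were lost without 13 and 8 of the 16 libraries. PHYA, the far-red light receptor that stabilizes CO, was lower in clf (-0.70) with each library left out. In lhp1 PHYA was lower too (-0.44, limma adjusted p = 0.024), a call lost without 4 of the 16 libraries. In aipp2paipp2 PHYA was at -0.42 (adjusted p = 0.025), and lost its call without Col-0 replicate 1, Col-0 replicate 2 or aipp2paipp2 replicate 1 (-0.35 without the last, adjusted p up to 0.1), while it was -0.50 without aipp2paipp2 replicate 2. SPA4, of the COP1 ubiquitin ligase complex that degrades CO, was higher in aipp2paipp2 (0.57, adjusted p = 0.037), lost that call without 11 of the 16 libraries, and was at 0.26 and 0.88 without aipp2paipp2 replicate 1 and replicate 2.

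Of the partners of CO protein, 8 of 9 were tested. In clf 3 were lower (14.7% of all genes), in lhp1 2 (8.37%) and in aipp2paipp2 1 (9.08%), and 1 was higher in cpl2 (4.97%). TOE1, an AP2-type repressor of FT that binds CO, was lower in clf (-1.25) and lhp1 (-1.17) with each library left out. In aipp2paipp2 TOE1 was at -0.36 (adjusted p = 0.024) and lost its call without Col-0 replicate 2 or aipp2paipp2 replicate 1 (adjusted p up to 0.14), with -0.29 and -0.42 without aipp2paipp2 replicate 1 and replicate 2. AT4G15248, a microprotein that binds CO, was lower in lhp1 (-1.22), except without Col-0 replicate 1, lhp1 replicate 1 or lhp1 replicate 2 (adjusted p up to 0.091), and higher in cpl2 (1.09), a call lost without 10 of the 16 libraries. NF-YB3 was lower in clf (-0.41) with each library left out, and BBX19 was lower there (-0.42) except with any 1 Col-0 or clf library left out (adjusted p up to 0.11).

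COL2, CDF2 and CDF3 resembled one another across genotypes. The Pearson correlation over the 16 libraries was 0.94 for COL2 with CDF3, 0.94 for COL2 with CDF2 and 0.93 for CDF2 with CDF3, against 0.77 for CO with COL2, and 0.37 for CO with CDF5. The correlations of FKF1 were -0.45 for CDF1, -0.29 for CO, -0.28 for COL2, -0.20 for CDF2, -0.12 for CDF3 and 0 for CDF5. COL2 correlated with CCA1 at 0.94 and CDF2 with CCA1 at 0.91. For the differences between the 2 libraries of a genotype, the correlation over 8 pairs was 0.8 for COL2 with CDF3. It was 0.08 for COL2 with CDF2, -0.01 for CDF2 with CDF3, 0.28 for COL2 with CCA1 and 0.05 for CDF2 with CCA1. These are descriptions over 8 genotypes with 2 libraries each. Of all genes tested, those most like CDF3 were IAA7 (0.977), EXO70A1 (0.971) and AT2G31810 (0.97). Those most like CO were AT5G58900 (0.953), the Dof gene OBP2 (0.946) and AT1G66940 (0.935). Those most like COL2 were AT1G75180 (0.964), AT5G54585 (0.961) and LNK2 (0.96), and those most like CDF2 were CIPK7 (0.952), GOS11 (0.947) and PI4KG7 (0.946). CDF1 was most like AT1G53875 (0.966), VAMP724 (0.923) and AT5G46020 (0.911), and CDF5 was most like AT4G17420 (0.928), AT1G09645 (0.888) and ACR6 (0.873). FKF1 was most like 2 glycine-rich RNA-binding protein genes under clock control, RBG8 (0.897) and RBG7 (0.893), and HMGB3 (0.892).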

How the data were processed

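Poly(A) RNA libraries of 12-day-old seedlings (8 genotypes, 2 libraries each) were analysed. SeqPrep and Sickle served the authors for read trimming, and FPKM values to 2 decimals are what they deposited. The submitters' processing notes list TopHat, Bowtie, RSEM and edgeR without versions, and the mRNA-seq genome build is not given in the sources used here. Columns were assigned to genotypes from the sample labels. Nothing states that replicates were separate cultures, so p-values measure only the spread between these samples.

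Of 33048 genes, 19895 reached 1 FPKM in 2 libraries or more and entered the test, made on log2(FPKM + 0.5) with limma 3.58.1 (R 4.3.3) in 1 fit with a mean-variance trend over all 16 libraries (8 residual degrees of freedom), with Benjamini-Hochberg adjustment over all genes. The pseudocount understates changes of low genes. Between 96.4% and 98.1% of low values lay within 0.2 fragments of a whole number, which gave the depth estimates. Depth covers counting error only. Promoter windows and gene positions came from RefSeq TAIR10.1, matched by locus identifier.

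The 8 genes and the lists of related genes were chosen with earlier results of these data known. All 8 were described in every genotype, with fold changes for those that passed. From each list at most 4 passing genes per comparison were named, largest change first, plus GI, CCA1, LHY, TOC1 and FT. PHYA in lhp1 and FBH2 in clf were named beyond that limit. For each tested member the 3 genes with the highest Pearson correlation were named. Alternatives were other pseudocounts, no filter, quantile and median-ratio scaling, no trend, a 2-fold minimum, a replicate block, each library left out in turn, and only the libraries compared. Leaving libraries out was extended to the related genes after seeing the data.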

Additional observations from a re-analysis of the deposited data

Results flagged for a closer look

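The following differences between mutants, in which the difference itself was tested (limma, main model), were past the threshold. The change in aipp2paipp2 departed from the sum of the changes in aipp2 and paipp2 by -1.74 on the log2 scale for CDF3, -1.42 for COL2 and -1.23 for CDF2. Compared directly with aipp3, aipp2paipp2 differed by -1.46 for CDF3, -1.1 for FKF1, -0.85 for CDF2 and -0.59 for COL2. Compared with cpl2 it differed by -1.07 for CDF3 and -0.95 for FKF1. Compared with lhp1 it differed by -1.38 for FKF1, 0.66 for COL2, 0.66 for CDF2 and 0.43 for CDF3. The direct comparisons between mutants were chosen after seeing the data, and the aipp2paipp2 libraries differed from each other more than those of any other genotype (10.94% of genes 2-fold or more apart).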

How the results depend on the processing

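The 2-fold counts below were made on the log2(FPKM + 0.5) scale. On that scale CO did not reach 2-fold in cpl2 or aipp2paipp2, at mean levels of 0.965 and 1.01 FPKM against 2.33 FPKM in Col-0. Neither did COL2 in clf, at 5.19 FPKM against 10.9 FPKM in Col-0. No photoperiod gene that passed in the main model changed direction in any alternative. CDF1 in aipp2paipp2, which did not pass there, was at -0.65 from Col-0 without aipp2paipp2 replicate 1 and at 0.53 without replicate 2. In clf 4 genes passed, 2 of them with a change of at least 2-fold, and leaving out 1 library gave 3 to 5. In lhp1 5 passed, and leaving out 1 library gave 3 to 7. In aipp2paipp2 4 passed, 1 of them by at least 2-fold, 0 in the fit of only the libraries compared, and 1 to 6 with 1 library left out, the lowest without Col-0 replicate 1. In cpl2 1 passed, 0 by at least 2-fold, 0 in the fit of only the libraries compared, and 0 to 1 with 1 library left out. Leaving out 1 library gave 0 to 3 in aipp3, 0 to 2 in paipp2, and 0 in aipp2. For clf against lhp1 the count of 0 became 1 (CDF5) without the trend, 2 (CDF1 and FKF1) in the fit of only the libraries compared, and 0 to 2 with 1 library left out. The interaction gave 3, 0 with only the libraries compared and 2 to 4 with 1 library left out. For aipp2paipp2 against aipp3, cpl2 and lhp1 the counts of 4, 2 and 4 became 2, 1 and 1 with a 2-fold minimum, 0 in each case with only the libraries compared, and 3 to 5, 1 to 5 and 2 to 5 with 1 library left out. The fits of only the libraries compared have fewer samples and use only the spread of those libraries. In such fits 5 genes passed in clf and 6 in lhp1. The fit of all 16 libraries pools the spread of all genotypes. The standard deviation of the log2 difference between replicates was 0.636 in aipp2paipp2, against 0.246 (aipp2) to 0.314 (Col-0) in the other genotypes.

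Over all genes tested, the number called also moved with the libraries used. It was 4754 in aipp2paipp2 (279 with only the libraries compared, 1912 to 11139 with 1 library left out), 3465 in lhp1 (5898, 1298 to 7003), 2904 for clf against lhp1 (7483, 841 to 6559), 952 for the interaction (7, 191 to 8520) and 73 in paipp2 (126, 8 to 979). For aipp2paipp2 against aipp3, cpl2 and lhp1 it was 4497, 2576 and 4564 (0, 2 and 364 with only the libraries compared; 1174 to 10710, 385 to 10549 and 1879 to 11065 with 1 library left out). With 1 library left out it was 551 to 4760 in aipp3 (1859), 409 to 3495 in cpl2 (1380), 2973 to 9060 in clf (5540) and 0 to 8 in aipp2 (1; 0 to 4 under the other settings). The share of calls that were higher moved under quantile normalization from 79.4% to 56.2% in aipp3, 71.7% to 61.3% in cpl2, 62.0% to 46.5% in aipp2paipp2 and 63.4% to 50.0% for aipp2paipp2 against lhp1, and under median-ratio scaling to 61.5% in aipp3 and 52.9% for aipp2paipp2 against lhp1. Median-ratio scaling also turned the majority from lower to higher in clf (47.1% to 56.0%) and for aipp2paipp2 against aipp3 (43.8% to 53.1%).

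Replicate numbers did not pair the samples: the correlation of deviations from the group means with Col-0 was -0.218 (lhp1) to 0.0588 (clf). With a replicate block the counts of photoperiod genes were 0 in aipp3, 1 in cpl2, 4 in aipp2paipp2, 0 in aipp2, 0 in paipp2, 4 in clf, 5 in lhp1, 0 for clf against lhp1 and 3 for the interaction. With the numbers crossed for the 4 mutants whose correlation was under -0.1 they were 0 in aipp3, 1 in cpl2, 0 in paipp2 and 5 in lhp1. Depth limits CO and CDF5 most.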
